A study of Mus musculus with 13 samples.

Results

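The genes described here are 10 Kruppel-like factors, Klf2, Klf3, Klf4, Klf5, Klf6, Klf7, Klf9, Klf10, Klf13 and Klf16, read in ribosome footprints of mouse fibroblasts during ER stress. They were taken by symbol from tables of 22406 symbols that hold 17 KLF genes in all, and the family was picked because Klf10 stood among the genes with the highest early change in WT MEFs. The WT change of Klf10 is therefore a description and supports nothing. The same holds for its change in NIH3T3 cells, whose part in the choice is not known. The study compared mouse embryonic fibroblasts (MEFs) labelled PERK WT with MEFs labelled PERK −/−, which lack the ER stress kinase PERK, and also used NIH3T3 cells, an established mouse fibroblast line. ER stress came from thapsigargin (Tg), which blocks the calcium pump of the ER. Both MEF genotypes were untreated (control) or received 1 μM Tg for 1, 2, 5 or 8 h, and NIH3T3 cells were untreated or received 200 nM Tg for 2 or 7 h. All cells were frozen without cycloheximide. There was 1 library for each of 13 conditions. Hence no spread between replicates was measured and no test between conditions was made. The genotypes are separate cells with 1 library per condition, and genotype and cells cannot be told apart.

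Kruppel-like factors are zinc finger transcription factors that bind GC-rich and CACCC sequences in promoters, and close relatives, the SP factors, bind much the same sequences. The family is grouped by what the part outside the zinc fingers recruits. Klf2, Klf4, Klf5, Klf6 and Klf7 act largely as activators through histone acetyltransferases, Klf3 binds the corepressor CtBP, and Klf9, Klf10, Klf13 and Klf16 carry a short motif that binds the corepressor SIN3. Several members are known as immediate early genes of fibroblasts, and many of the proteins turn over fast.

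The promoters of 7 of the 10 members had an entry in the RefSeq table used here (GRCm38.p6), and Klf5, Klf10 and Klf16 had none. Shown are the stretches before the start of those members that were at least 2-fold higher in WT MEFs at some time and whose window did not lie within an annotated transcript. Each is printed 5′ to 3′ on the strand of its gene, from 250 bases before the RefSeq start up to the first base of the gene in RefSeq or GENCODE, whichever comes first. Capitals mark TGACG (the core of the cAMP response element), CCAAT and GGGCGG (the GC box), on either strand.
Klf2, chr8:72318812-72319032, plus strand: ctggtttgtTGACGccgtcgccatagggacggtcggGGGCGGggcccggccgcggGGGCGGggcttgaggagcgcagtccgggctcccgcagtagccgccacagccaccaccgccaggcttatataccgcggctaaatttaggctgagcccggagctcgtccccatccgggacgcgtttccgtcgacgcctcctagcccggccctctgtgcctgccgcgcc
Klf4, chr4:55532476-55532725, minus strand: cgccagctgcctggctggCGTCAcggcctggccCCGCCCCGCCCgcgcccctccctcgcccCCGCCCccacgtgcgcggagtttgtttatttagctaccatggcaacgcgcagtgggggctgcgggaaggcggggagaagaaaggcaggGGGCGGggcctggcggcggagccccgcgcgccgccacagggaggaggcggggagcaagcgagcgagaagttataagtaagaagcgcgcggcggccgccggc
Klf6, chr13:5861239-5861481, plus strand: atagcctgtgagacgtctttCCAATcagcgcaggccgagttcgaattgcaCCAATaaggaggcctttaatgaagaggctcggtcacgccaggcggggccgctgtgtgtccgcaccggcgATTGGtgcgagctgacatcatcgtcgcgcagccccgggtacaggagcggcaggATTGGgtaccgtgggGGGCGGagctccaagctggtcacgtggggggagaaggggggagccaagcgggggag
Klf13, chr7:63938916-63939165, minus strand: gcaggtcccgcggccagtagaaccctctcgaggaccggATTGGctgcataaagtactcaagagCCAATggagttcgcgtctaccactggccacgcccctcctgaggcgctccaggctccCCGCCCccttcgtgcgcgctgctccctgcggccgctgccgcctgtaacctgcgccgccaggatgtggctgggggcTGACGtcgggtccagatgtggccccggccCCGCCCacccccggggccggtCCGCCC

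Over the whole 250 bases, GGGCGG was found in 6 of the 7 members with an entry (all but Klf9), against 32.7% of all 32851 promoters of this length. CACCC was found in 5 (Klf2, Klf3, Klf7, Klf9 and Klf13), against 52.0%, and CCAAT in 3 (Klf6, Klf9 and Klf13), against 33.8%. TGACG was in 4 (Klf2, Klf4, Klf9 and Klf13), against 17.8%. The full element TGACGTCA and the C/EBP-ATF element TGATGNAA were in none of the 7, against 1.55 and 3.45% of all promoters. The CArG box (CC, then 6 letters A or T, then GG) and TATAAA were also in none, against 1.47 and 12.4%. Klf9 alone held TGACGTG (1.65% of all promoters), which overlaps its TGACG, and TGANTCA (6.75%). Both strands were searched. Apart from Klf7, whose value was not listed, G and C made up 59.6% (Klf9) to 78.4% (Klf3) of the 250 bases. The shares of all promoters were not matched for this. These are matches of letters in 1 short window and were not set against the changes below.

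Total expected counts ran from 2525029 to 14799515 per library. The smallest library was WT 2 h and the largest PERK −/− 2 h, and NIH3T3 2 h held 2569965. Atf4, the factor translated when eIF2α is phosphorylated, was at 14.1 to 16.7-fold its control in the WT Tg libraries, and at 25.1 to 60.2 TPM in the PERK −/− Tg libraries against 41.4 in their control. Ddit3, the gene of CHOP downstream of Atf4, was 19.7 to 42.0-fold in the WT Tg libraries, and in PERK −/− MEFs it read 6.91 TPM (21 counts) in the control and 8.28 to 14.2 TPM with Tg. In NIH3T3 cells it was 23.0-fold at 2 h and 8.11-fold at 7 h. The gene of PERK, Eif2ak3, was not free of footprints in the libraries labelled PERK −/−. Its counts per library total (CPM) there were 7.64 to 19.1, lower than the 14.4 to 33.3 of WT at each time. Its TPM, however, was higher than in WT in the control (11.2 against 6.03), at 5 h (14.9 against 14.0) and at 8 h (17.2 against 15.7), and lower only at 1 and 2 h. Gene-level values do not show which exons these footprints lie in, so Eif2ak3 checks the label in counts only, and PERK −/− below means the libraries with that label. The 10 fibroblast markers summed to 3455 to 6652 TPM in every library, while those of epithelial, endothelial and leukocyte cells summed to at most 17.7 TPM. Of these 10, the number at 2 TPM or more was 7 in the WT control, 10 in the PERK −/− control and 7 in the NIH3T3 control. The WT control read 0 TPM for Lum, 0.27 for Pdgfra and 0.95 for Dcn. Dcn and Lum were at 0 in NIH3T3 cells, and Col3a1 was at 0.64 TPM in the NIH3T3 control. Fibroblast markers moved with Tg in PERK −/− MEFs, where 5 of the 9 measured were at least 2-fold lower at 2 h (Col1a1, Col1a2, Col3a1, Fn1 and Pdgfrb), and 2, 2 and 1 were at 1, 5 and 8 h. They also moved in NIH3T3 cells, where of 7 measured 1 was at least 2-fold lower at 2 h (Col1a1) and 3 at 7 h (Col1a1, Col1a2 and Pdgfra). None of the 9 was in any WT library. Their part in the results below was not tested.

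TPM is a share of a library per length of coding sequence, so each value is relative to the other genes of its library. By polysome profiling, the study reported that total translation fell sharply with Tg in WT MEFs and NIH3T3 cells. In PERK −/− MEFs it reported only a slight and late fall. The changes below are thus changes of share in totals that differ, and they do not give absolute synthesis. Footprints count ribosomes, so more mRNA and more ribosomes per mRNA cannot be told apart. Shares within a library show neither the number of cells nor the RNA per cell. A change is given below as the ratio of TPM in a Tg library to that in the control of the same cells, with TPM under 4 raised to 4, and a gene is called higher or lower at 2-fold. Genes with a mean of at least 2 TPM over the libraries of a table were used, 10432 in MEFs and 10117 in NIH3T3 cells, and all 10 members were among them in both. Gene positions are those of GENCODE M21 on GRCm38, the assembly of mm10, with the exons of the transcript of the longest coding sequence, and no member's coding sequence overlaps that of another gene. Intervals are exact 95% conditional intervals (Clopper-Pearson) of expected counts per library total and cover counting error only. Tg libraries of one kind of cell share 1 control, so an error in that control enters all of their changes.

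All 10 members were above their control in all 4 WT Tg libraries (40 of 40 values), and 29.7% of all genes were. In 36 of these 40 values the counting interval lay above 0, against 33.2% of the values of all genes. The number of members at least 2-fold higher was 3 at 1 h (background 4.33% of genes), 7 at 2 h (5.66%), 4 at 5 h (5.86%) and 4 at 8 h (6.45%). None was at least 2-fold lower at any of these times, where 2.29, 4.01, 3.55 and 3.87% of genes were (6.64% at some time), and none was below its control at every time (27.5% of genes). The median log2 change of the members was 0.87, 1.19, 0.77 and 0.79 at 1, 2, 5 and 8 h, and that of all genes 0.00 to 0.01. Over the 4 times, 7 members were at least 2-fold higher (10.7% of genes), namely Klf2, Klf4, Klf6, Klf7, Klf10, Klf13 and Klf16. The family was chosen for Klf10 in these same libraries. From 1 to 2 h Klf4 and Klf10 were at least 2-fold higher (2.01% of genes), and from 2 to 5 h no member was (1.03%), while Klf10 was at 0.425-fold (0.776% of genes at least 2-fold lower).

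**Figure D1:**
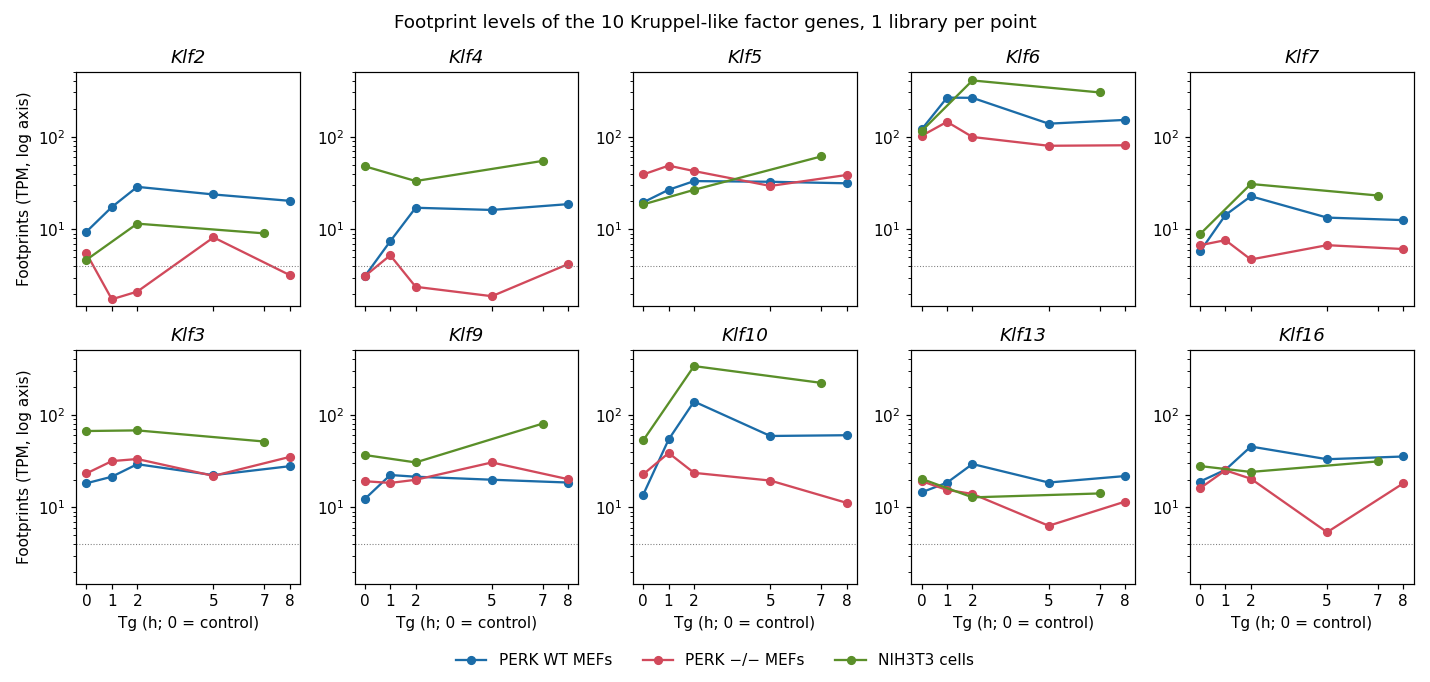
Footprint level (TPM, log axis) of each of the 10 members against hours of Tg, with 1 library per point and the control at 0 h, for WT MEFs (blue), PERK −/− MEFs (red) and NIH3T3 cells (green). The top row holds the activator class and the bottom row the repressor classes. The dotted line is the floor of 4 TPM. All blue Tg points lie above the blue control, and Klf10 in WT MEFs reaches 139 TPM at 2 h from 13.7 in the control.

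Among the activators, Klf6 (chr13:5861482-5870394, plus strand, 4 exons), a widely expressed factor known from wound responses, had the highest level. It stood at 120 TPM in the WT control and at 264, 262, 138 and 152 TPM after 1, 2, 5 and 8 h of Tg. Both early libraries were thus high, at 2.20 and 2.19-fold, and both late ones near the control, at 1.15 and 1.27-fold. In PERK −/− MEFs Klf6 read 102 TPM in the control and 145, 99.2, 79.7 and 80.8 TPM with Tg. It was 1.42-fold at 1 h, and at 5 and 8 h it lay under its control, with intervals of the log2 count change of −0.48 to −0.16 and −0.51 to −0.18. NIH3T3 cells had 115 TPM in the control, 404 at 2 h (3.51-fold) and 300.1 at 7 h (2.61-fold).

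Klf2 (chr8:72319033-72321656, plus strand, 3 exons), best known from endothelium and resting T cells, was at 9.43 TPM in the WT control. The WT Tg libraries held 17.4, 28.7, 23.8 and 20.3 TPM, which is 1.85, 3.05, 2.52 and 2.15-fold. All 4 lay above the control and the level was highest at 2 h. The PERK −/− libraries had few footprints of Klf2, with 39 counts (5.50 TPM) in the control and 19, 35, 71 and 25 counts (1.76, 2.13, 8.19 and 3.21 TPM) with Tg. The floor of 4 TPM hides most of this difference. In counts the log2 change was −1.61 (−2.48 to −0.78) at 1 h, −1.29 (−1.99 to −0.60) at 2 h, 0.61 (0.03 to 1.21) at 5 h and −0.79 (−1.57 to −0.03) at 8 h, so the 5 h library alone was above its control. NIH3T3 cells went from 4.69 TPM to 11.5 at 2 h (2.46-fold) and 9.05 at 7 h (1.93-fold, just under the 2-fold limit).

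Klf4 (chr4:55527143-55532466, minus strand, 5 exons) belongs to the factors that reprogram fibroblasts to stem cells. It was under the floor of 4 TPM in both MEF controls, with 3.12 TPM (55 counts) in WT and 3.13 TPM (31 counts) in PERK −/−. In WT MEFs it read 7.44, 17.1, 16.2 and 18.7 TPM with Tg, so that 8 h was its highest library, unlike most members. Against the floor this is 1.86, 4.28, 4.05 and 4.68-fold, and in counts the log2 changes were 1.27, 2.46, 2.37 and 2.59. The PERK −/− Tg libraries stayed between 1.90 and 5.25 TPM, with 23 to 79 counts, and the intervals of 3 of the 4 changes included 0. NIH3T3 cells had a high level before Tg, 47.9 TPM, and read 33.2 TPM at 2 h (0.693-fold) and 54.8 at 7 h (1.14-fold).

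Klf7 (chr1:64029447-64122282, minus strand, 4 exons), known from the development of neurons, was low in MEFs, at 5.77 TPM in WT and 6.74 in PERK −/− controls. WT Tg libraries held 14.3, 22.8, 13.4 and 12.6 TPM, each more than 2-fold over the control (2.47, 3.94, 2.32 and 2.18-fold). PERK −/− Tg libraries held 7.65, 4.73, 6.75 and 6.13 TPM, and all 4 intervals included 0. In NIH3T3 cells Klf7 read 8.87 TPM in the control, 30.9 at 2 h (3.48-fold) and 23.2 at 7 h (2.61-fold).

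Klf5 (chr14:99298691-99315036, plus strand, 4 exons) is a factor of proliferating epithelium and smooth muscle. In WT MEFs it read 19.6 TPM in the control and 26.7, 33.2, 32.6 and 31.4 TPM with Tg, 1.37 to 1.69-fold. PERK −/− MEFs had 39.1 TPM in the control, 2.00 times the WT control, and 48.7, 42.5, 29.4 and 38.6 TPM with Tg. In NIH3T3 cells it was 18.6 TPM in the control, 26.7 at 2 h (1.44-fold) and 61.2 at 7 h (3.29-fold). The 7 h library was 2.29-fold the 2 h library, with an interval of the log2 count change of 0.78 to 1.39.

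Klf3 (chr5:64803388-64832901, plus strand, 6 exons), the member that binds CtBP, is known from red cell and fat development. WT MEFs read 18.2 TPM in the control and 21.4, 29.3, 22.3 and 27.8 TPM with Tg (1.18 to 1.61-fold). PERK −/− MEFs read 23.3 TPM in the control and 31.6, 33.3, 21.9 and 35.1 TPM with Tg (0.941 to 1.51-fold). NIH3T3 cells held more of it, 66.7 TPM untreated, 67.8 at 2 h and 51.4 at 7 h.

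Klf10 (chr15:38291463-38300706, minus strand, 4 exons) was first known as an early gene induced by TGF-β and represses through SIN3. It stood at 13.7 TPM (240 counts) in the WT control and at 54.1, 139, 59.0 and 60.1 TPM (290, 516, 485 and 990 counts) after 1, 2, 5 and 8 h. These are 3.94, 10.1, 4.30 and 4.38-fold, ranks 50, 13, 63 and 67 among 10432 genes, and they are the values for which the family was chosen. In PERK −/− MEFs it read 22.8 TPM in the control and 38.7, 23.6, 19.5 and 11.2 TPM with Tg. It was 1.70-fold at 1 h, with a log2 count change of 0.86 (0.63 to 1.10) and rank 192 of the 10432 genes. By 8 h it was 0.493-fold, with a log2 count change of −0.94 (−1.28 to −0.61), just past the 2-fold limit. Whether NIH3T3 values also entered the choice is not known, so they too are only a description. In NIH3T3 cells Klf10 read 52.9 TPM (935 counts) in the control, 335 at 2 h (1444 counts) and 221 at 7 h (2006 counts). The log2 count changes were 2.74 (2.62 to 2.86) and 2.05 (1.94 to 2.16), and its ranks by TPM change were 23 and 79 of 10117 genes.

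Klf9 (chr19:23141226-23168134, plus strand, 2 exons), known as a target of glucocorticoid and thyroid hormone receptors, was at 12.3 TPM in the WT control and between 18.6 and 22.4 TPM in the 4 WT Tg libraries (at most 1.81-fold). PERK −/− MEFs read 19.2 TPM in the control and 18.4, 19.9, 30.6 and 20.2 TPM with Tg, highest at 5 h. In NIH3T3 cells it was 36.8 TPM in the control, 30.6 at 2 h (0.832-fold) and 80.3 at 7 h (2.18-fold). With Klf5 it was the only member at least 2-fold higher at 7 h than at 2 h, at 2.63-fold (4.74% of genes).

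Klf13 (chr7:63886351-63938915, minus strand, 2 exons) is a factor of lymphocytes and heart. It read 14.6 TPM in the WT control and 18.5, 29.4, 18.6 and 21.8 TPM with Tg, and passed 2-fold at 2 h by a narrow margin (2.02-fold, 63 counts). In PERK −/− MEFs it read 19.2 TPM in the control and 15.4, 14.0, 6.34 and 11.5 TPM with Tg, lower in all 4 libraries. NIH3T3 cells also had less of it with Tg, 20.3 TPM in the control, 12.8 at 2 h (0.632-fold) and 14.2 at 7 h (0.696-fold). It was the only member below its control at every time in PERK −/− MEFs (18.6% of genes) or NIH3T3 cells (41% of genes).

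Klf16 (chr10:80567124-80577321, minus strand, 2 exons), known as a regulator of dopamine receptor genes, read 19.0 TPM in the WT control. The WT Tg libraries held 25.5, 45.4, 33.1 and 35.4 TPM, with 2.38-fold at 2 h. PERK −/− MEFs read 16.1 TPM in the control and 25.1, 20.4, 5.40 and 18.2 TPM with Tg, lower at 5 h alone. NIH3T3 cells stayed near their control of 27.9 TPM, with 24.2 TPM at 2 h and 31.4 at 7 h, and both intervals included 0.

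Taken by class, the 5 activators had median log2 changes of 0.90, 1.61, 1.21 and 1.11 in WT MEFs at 1, 2, 5 and 8 h, and the 4 genes that bind SIN3 had 0.64, 1.13, 0.75 and 0.74. In PERK −/− MEFs the activators had medians of 0.32, −0.04, 0.00 and −0.14, and the SIN3 class 0.29, 0.05, −0.90 and −0.33. At 5 h in these cells the SIN3 class ran from −1.60 for Klf13 to 0.67 for Klf9. In NIH3T3 cells the activators had 1.30 and 1.38 at 2 and 7 h and the SIN3 class −0.24 and 0.65. Both classes spread widely around their medians in NIH3T3 cells at 2 h. The activators ran from −0.53 for Klf4 to 1.81 for Klf6, and the SIN3 class from −0.66 for Klf13 to 2.66 for Klf10. With 5 and 4 genes these medians describe the members and no difference between the classes was tested.

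In PERK −/− MEFs no member was at least 2-fold higher at 1, 2, 5 or 8 h, where 0.719, 0.623, 3.26 and 3.28% of genes were (6.25% at some time), nor from 1 to 2 h (0.278%). None was at least 2-fold lower at 1 or 2 h (3.38 and 5.78% of genes), 2 were at 5 h (Klf13 and Klf16, 4.77%) and 1 at 8 h (Klf10, 2.73%). Of the 40 values 19 were above the control and 19 below, and Klf4 was under the floor in both libraries in the other 2. The counting interval lay above 0 in 12 values (26.4% of the values of all genes) and below 0 in 11 (30.8%). The median log2 change of the members was 0.35, 0.03, −0.16 and −0.08, and that of all genes −0.06, −0.11, 0.00 and 0.04. The highest Tg library was that of 1 h for 7 members (Klf4, Klf5, Klf6, Klf7, Klf10, Klf13 and Klf16). In WT MEFs it was that of 2 h for 7 members, with Klf6 and Klf9 at 1 h and Klf4 at 8 h.

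In the PERK −/− 5 h library some members lay far from their values at 2 and at 8 h. Klf16 was at 0.265-fold in it against the 2 h library and at 3.37-fold in the 8 h library against it, and Klf13 at 0.453 and 1.82-fold. Klf2 went the other way, at 2.05 and 0.488-fold. Among all genes, 7.73% were at least 2-fold higher and 2.73% lower at 5 h than at 2 h, and 4.76 and 2.14% at 8 h than at 5 h. At 8 h against 1 h the shares were 8.63 and 2.47%. Whether the PERK −/− 5 h library stands apart from the others was not tested. Without the 5 h library, 1 member (Klf10, 8.24% of genes) in place of 3 (10.6% of genes) was at least 2-fold lower at any time. In WT MEFs the step from 5 to 8 h was small for all 10 members, at most 0.32 on the log2 scale in either direction, and none passed 2-fold (0.0575% of genes higher and 0.0863% lower).

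**Figure D2:**
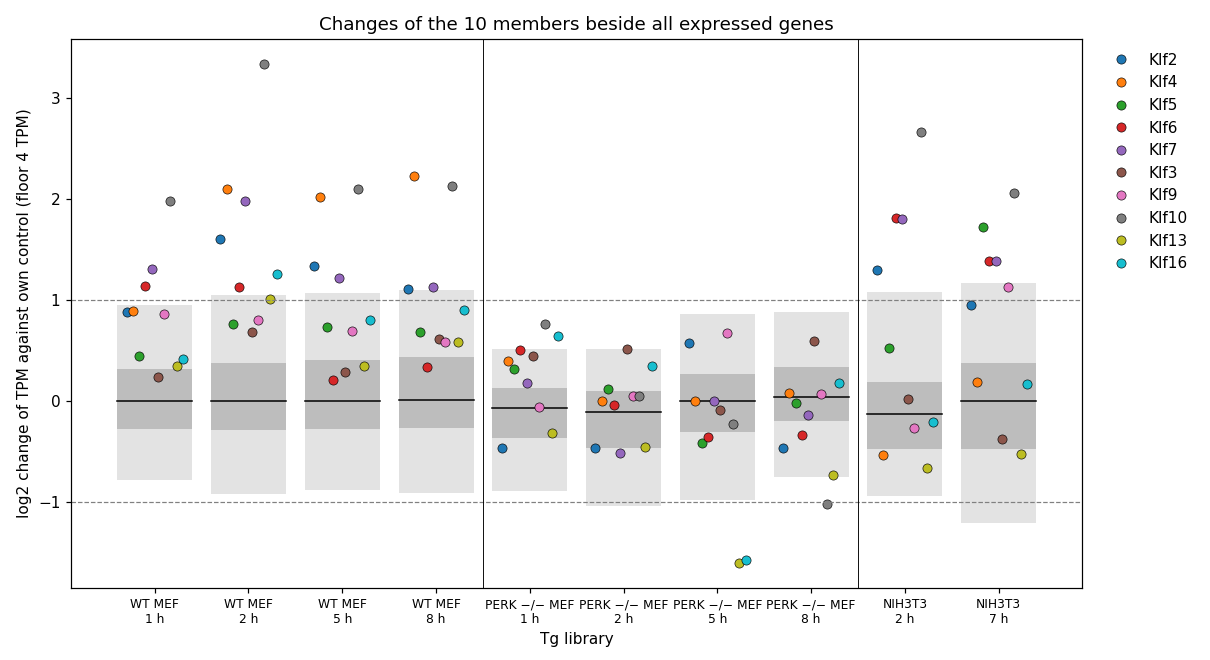
Log2 change of TPM (floor 4) of the 10 members in each of the 10 Tg libraries against the control of the same cells, 1 coloured point per member. Boxes show all measured genes of that comparison, from the 5th to the 95th percentile in light grey and from the 25th to the 75th in dark grey, with their median as a line, and dashed lines mark 2-fold. All 40 WT points lie above 0, with Klf10 at 3.34 at 2 h, while the PERK −/− points lie between −1.60 and 0.76.

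The difference between the genotypes was taken as the log2 count change in WT minus that in PERK −/− MEFs at the same time, with a 95% Wald interval from the 4 counts (at least 10 in each), which again covers counting error only. The interval lay above 0 for 6 of 10 members at 1 h (34.3% of genes), 9 at 2 h (38.1%), 8 at 5 h (33.1%) and 8 at 8 h (31%). It lay below 0 for none, where 22.5, 23.1, 26.9 and 28.1% of genes did. The median difference of the members was 0.63, 1.25, 1.14 and 1.00 at 1, 2, 5 and 8 h, and that of all genes 0.14, 0.19, 0.07 and 0.03. For Klf10 the difference was 1.14 (0.80 to 1.48), 3.13 (2.81 to 3.44), 2.20 (1.85 to 2.55) and 3.08 (2.70 to 3.46), and its WT values served to choose the family. Klf2 at 2 h had 2.91 (2.13 to 3.68), Klf4 had 2.77 (1.95 to 3.59), and Klf7 had 2.42 (1.64 to 3.20). For Klf6, with the most counts, it was 0.62, 1.10, 0.53 and 0.69, each with an interval above 0. Klf3 was the only member whose interval included 0 at all 4 times, with values from −0.22 to 0.34. At 5 h the values of Klf13 (1.91) and Klf16 (2.34) rest on the low PERK −/− levels of that library, and at 8 h they were 1.33 (0.80 to 1.85) and 0.73 (0.22 to 1.24).

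**Figure D3:**
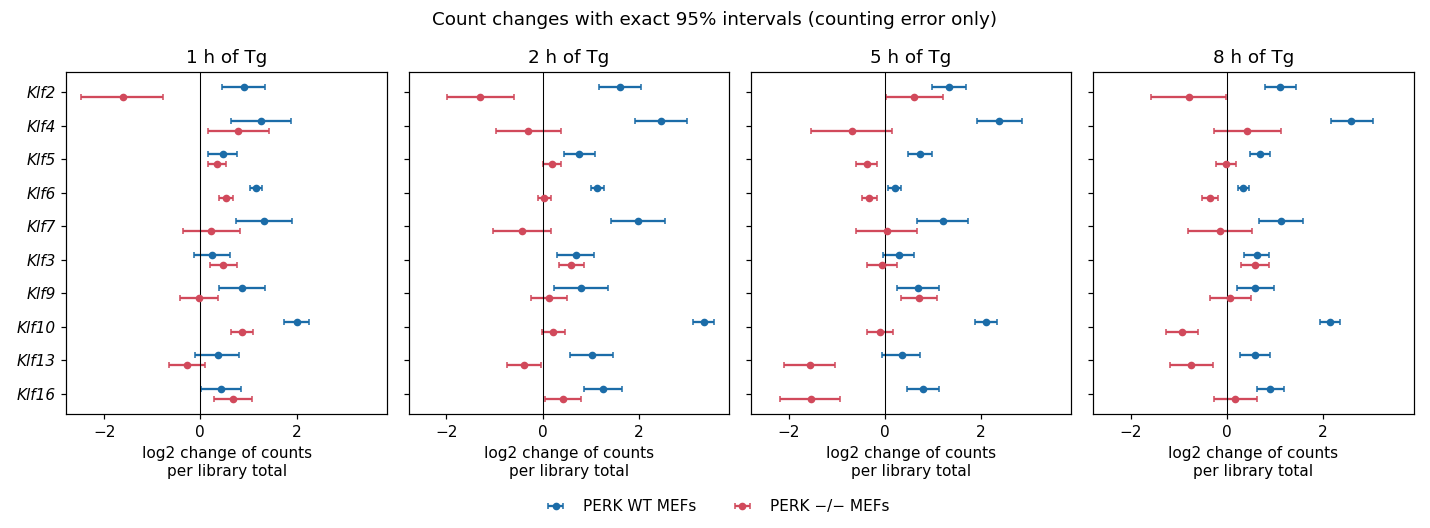
Log2 change of expected counts per library total for each member after 1, 2, 5 and 8 h of Tg, with WT MEFs in blue and PERK −/− MEFs in red. Points are single libraries against their control and bars are exact 95% intervals of counting error. At 2 h all 10 blue intervals lie above 0, and the widest gap between the colours at that time is that of Klf10.

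NIH3T3 cells at their own dose and times had 4 members at least 2-fold higher at 2 h (Klf2, Klf6, Klf7 and Klf10, 5.76% of genes) and 5 at 7 h (Klf5, Klf6, Klf7, Klf9 and Klf10, 7.01%). None was at least 2-fold lower (3.76 and 8.06% of genes, 9.72% at either time). The counting interval was above 0 in 12 of 20 values (27.9% of the values of all genes) and below 0 in 4 (35.2%). The members' median log2 change was 0.27 at 2 h and 1.04 at 7 h, beside −0.13 and 0.00 for all genes. Above the control at both times were 5 members (23.8% of genes). Klf4, Klf13 and Klf16, at least 2-fold higher in WT MEFs at 2 h, were at 0.693, 0.632 and 0.865-fold in NIH3T3 cells at 2 h. Doses and late times differ between the cells, and no difference between them was tested.

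The 10 genes together took 235 TPM in the WT control and 471, 628, 377 and 398 TPM in the Tg libraries, 1.60 to 2.67-fold. In PERK −/− MEFs they took 257 TPM in the control and 337, 262, 210 and 229 TPM with Tg, 0.816 to 1.31-fold. In NIH3T3 cells the sum was 400 TPM untreated, 976 at 2 h and 846 at 7 h. Klf6 held the first place in all 13 libraries, with 28.8 to 55.9% of the sum. Klf10 held rank 6 of the 10 in the WT control and rank 2 in each WT Tg library, with 22.1% of the sum at 2 h. Its rank in PERK −/− MEFs was 4 in the control and 3, 4, 5 and 7 with Tg. In NIH3T3 cells it was 3 in the control and 2 at both times.

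**Figure D4:**
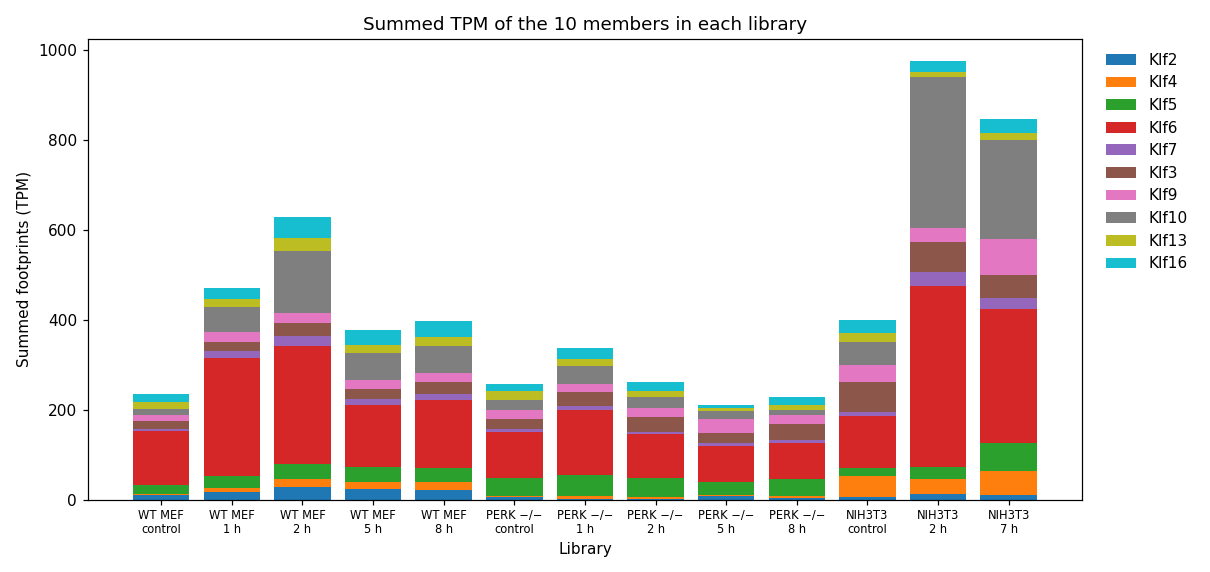
Summed TPM of the 10 members in each of the 13 libraries (bars from 0), split by gene. Klf6 (red) and Klf10 (grey) make up most of the height added at 2 h of Tg in WT MEFs and NIH3T3 cells, and the PERK −/− bars stay between 210 and 337 TPM.

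Before Tg, no member differed at least 2-fold between PERK −/− and WT MEFs, where 6.04% of genes were higher and 1.97% lower. Klf5 came nearest, at 2.00-fold by rounding (log2 1.00), and Klf10 was at 1.66-fold. Klf2 was at 0.583-fold, with a log2 count change of −0.78 (−1.34 to −0.25). Against the WT control, the NIH3T3 control, from a separate table, had 4 members at least 2-fold higher (Klf3, Klf4, Klf9 and Klf10, 14.9% of genes) and 1 lower (Klf2, 9.06%). Klf4 was the most apart, at 12.0-fold over the floor.

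Of the other 7 KLF genes, Klf8, Klf11 and Klf12 passed the filter on low values in MEFs and Klf11 alone in NIH3T3 cells, and none of these was at least 2-fold from its control in TPM with the floor. Klf11, the closest relative of Klf10, had 30 counts in the WT control and 18, 25, 50 and 112 with Tg. Per library total that was 1.99-fold (1.04 to 3.68), 3.94-fold (2.22 to 6.94), 3.55-fold (2.21 to 5.77) and 3.99-fold (2.65 to 6.19). Unlike Klf10 it was also above its control in all 4 PERK −/− Tg libraries in counts (23 counts in the control and 65, 142, 85 and 61 with Tg). Those values were 1.90-fold (1.17 to 3.21), 2.81-fold (1.80 to 4.58), 3.10-fold (1.94 to 5.15) and 2.40-fold (1.46 to 4.06). Its levels were at most 6.73 TPM in MEFs, so the floor hides most of this. In NIH3T3 cells its control had 146 counts, and the Tg libraries 52 (2 h) and 146 (7 h), 1.54-fold (1.10 to 2.13) and 1.93-fold (1.53 to 2.45). Klf12, a repressor that binds CtBP, was at 0.316-fold (0.184 to 0.528) in PERK −/− MEFs at 1 h, with 49 and 23 counts, and at 0.567-fold (0.383 to 0.843) at 2 h. At 5 and 8 h it was at 1.33-fold (0.922 to 1.95) and 1.24-fold (0.843 to 1.83), and all 4 of its WT intervals included no change. Among the 9 SP genes, Sp1, Sp2 and Sp3 passed the filter in both tables and none was at least 2-fold from its control. Sp1, which shares GC boxes with the family, stood between 39.4 and 61.0 TPM in all 13 libraries, below Klf6 in each and below Klf10 in 6 of them.

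The partners of the family were taken from lists chosen by known function. Of the 6 SIN3 corepressor genes (Sin3a, Sin3b, Sap30, Sap18, Hdac1 and Hdac2), Hdac2, a histone deacetylase, was the only one at least 2-fold from its control. It read 189 TPM in the WT control and 87.5, 84.9 and 85.7 TPM at 2, 5 and 8 h, 0.450 to 0.464-fold. Of the corepressors Ctbp1 and Ctbp2, Ctbp1 was lower in NIH3T3 cells at 7 h (30.4 to 12.0 TPM, 0.394-fold), and of the acetyltransferase genes Ep300, Crebbp and Kat2b, Crebbp was lower there (13.5 to 6.73 TPM). No gene of these 3 lists was at least 2-fold higher in any Tg library.

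Among 8 genes of ubiquitin ligases known to act on the family or on its pathways, Siah1a was at least 2-fold higher in WT MEFs at 5 and 8 h (8.80 TPM in the control, 18.2 and 18.4 TPM) and in all 4 PERK −/− Tg libraries (control 39 counts). It has a near-identical copy, Siah1b, and its counts are uncertain for that reason. Smurf2 was lower in WT MEFs at 8 h (13.8 to 6.42 TPM) and, on fewer than 50 counts, in WT MEFs and NIH3T3 cells at 2 h. Of the ERK5 and MEF2 genes, which drive Klf2 and Klf4 in endothelium, Mapk7, the gene of ERK5, was lower in PERK −/− MEFs at 2 h (9.21 to 4.34 TPM, 0.471-fold) and no other was 2-fold from its control.

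Of 6 genes known as targets of single members (Cdkn1a, Smad7, Eng, Thbd, Ccnd1 and Pdgfa), Smad7, the inhibitor of TGF-β signalling that Klf10 represses, read 7.67 TPM in the WT control. It was 24.4, 18.2 and 15.5 TPM at 2, 5 and 8 h, 3.19, 2.38 and 2.02-fold, and in NIH3T3 cells it was 2.21-fold at 7 h and also at least 2-fold higher at 2 h, there on fewer than 50 counts. It was not 2-fold from its control in any PERK −/− Tg library. Ccnd1, the cyclin D1 gene that Klf5 activates, was lower in both genotypes, at 0.291 and 0.317-fold in WT MEFs at 5 and 8 h and 0.424 and 0.341-fold in PERK −/− MEFs. Thbd, the thrombomodulin gene that Klf2 and Klf4 activate, was 3.52-fold in NIH3T3 cells at 7 h (29.3 to 103 TPM). Cdkn1a, a target of Klf4 and Klf6, was lower in PERK −/− MEFs at 2 h (59.9 to 28.6 TPM, 0.478-fold), and Pdgfa, on fewer than 50 counts, at 8 h.

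Over the 10 Tg libraries, the genes whose log2 changes followed those of Klf10 most closely were Id3, Gadd45b, Rnd1, Mlst8 and Snai1, with Pearson's r from 0.934 to 0.972. They were the first 5 of 1020 candidates at least 2-fold higher somewhere and with enough counts there. The 10 points share 3 controls, and the values are a description. Id3, an inhibitor of helix-loop-helix factors, had log2 changes of 2.08, 2.99, 2.15 and 2.22 in WT MEFs, −0.89 to −0.09 in PERK −/− MEFs, and 2.62 and 1.42 in NIH3T3 cells. Gadd45b, a stress gene, had 2.46 in WT MEFs at 2 h, −0.41 to 0.52 in PERK −/− MEFs and 2.24 in NIH3T3 cells at 2 h. Among the members, r with Klf10 was 0.95 for Klf7, 0.86 for Klf2 and 0.80 for Klf6, and −0.08 for Klf3.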

How the data were processed

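The data are ribosome footprints from 13 libraries, grouped by title, with a single library for each condition. The authors kept footprints of 22 to 34 nt, filtered rRNA and tRNA reads with STAR, used Bowtie2 against mm10 RefSeq coding sequences, from which 30 nt had been clipped at both ends, and quantified genes with RSEM. Transcripts under 100 nt were left out. Versions are not given in the sources used here. Expected counts, whole numbers in the deposited tables, carry no scaling. The TPM values were deposited by the authors as RSEM scaled them within each library.

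The members and all gene lists were chosen with earlier results of these data known. Every rank and background used the whole table, and the members were read from it. Genes named were all members, list genes at least 2-fold from the control with 50 or more counts in each library compared, those of the counts of 5 or fewer that fell under this limit, Eif2ak3, Atf4 and Ddit3 as checks, and the 5 genes most like Klf10. Other KLF genes were named by their counts after the values were seen. The candidates for likeness had a mean of at least 2 TPM in both tables, were at least 2-fold higher somewhere and had at least 100 counts wherever they were. No test was run, each condition being a single library. The intervals were run on simulated Poisson counts, the model that they assume, so their coverage in the real libraries was not tested.

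Settings varied were the floor (1 TPM, or none with a pseudocount of 1), the filter (mean of 5 TPM, or none), the limit (1.5-fold and 3-fold), and the scale, with counts scaled by the library total, TMM factors or DESeq2 size factors (0.5 added to each count). Leaving out the libraries of WT 2 h, PERK −/− 5 h and NIH3T3 2 h was chosen after seeing the data. Python 3.11.15 (numpy 2.4.6, pandas 2.3.3, scipy 1.17.1, matplotlib 3.10.9) and R 4.3.3 (edgeR 4.0.16, DESeq2 1.42.0) were used.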

Additional observations from a re-analysis of the deposited data

Results flagged for a closer look

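Klf13 stood out because every Tg library of one kind of cell moved one way and every Tg library of another the opposite way. Its mean log2 change was 0.57 over the 4 WT Tg libraries and −0.78 over the 4 PERK −/− Tg libraries, a difference of 1.35. Without the PERK −/− 5 h library, chosen after seeing the data, the PERK −/− mean was −0.50 and the difference 1.07. Against NIH3T3 cells, where the mean over 2 Tg libraries was −0.59, the difference from WT MEFs was 1.17. These differences were not tested, and they come from the same libraries whose signs flagged the gene. Of all genes, 29.7% were higher than control at every WT time. Lower at every time were 18.6% in PERK −/− MEFs and 41% in NIH3T3 cells. The share of genes that met both sides of the rule was not counted. Libraries of one kind of cell share 1 control, and for WT MEFs the doses and late times differ from those of NIH3T3 cells. At 1 and 5 h in WT MEFs and at 1 h in PERK −/− MEFs the counting intervals of Klf13 included 0.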

How the results depend on the processing

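The number of members at least 2-fold higher or lower at any time stayed within 1.5 times the value above except as follows. With a 1.5-fold limit, 4 members were higher in PERK −/− MEFs (Klf3, Klf9, Klf10 and Klf16, 21.7% of all genes) and 1 was lower in NIH3T3 cells (Klf13, 28.2%), in place of 0 each. With a 3-fold limit, 4 were higher in WT MEFs (Klf2, Klf4, Klf7 and Klf10, 2.86% of all genes) and 1 was lower in PERK −/− MEFs (Klf13, 2.43%). Without the PERK −/− 5 h library, 1 was lower in those cells (Klf10, 8.24%). Klf13 fell under 2-fold in WT MEFs with a pseudocount and with TMM or DESeq2 factors, and Klf13 and Klf16 without the WT 2 h library. In PERK −/− MEFs Klf10 was no longer 2-fold lower with a pseudocount or CPM. Klf2 was 2-fold lower there with CPM, TMM or DESeq2 factors, a pseudocount or a floor of 1. NIH3T3 cells kept 6 higher members under every scaling, floor and filter tried. The share of all genes there was 10.5% with the main settings, 4.75% with no filter and 16.1% with TMM factors. Of 100 single changes, 8 moved by more than their counting error with DESeq2 factors, 6 with TMM factors, 3 with CPM, 2 with a floor of 1 and 0 with a pseudocount. The sign turned only for Klf6 at 2 h and Klf9 at 1 and 8 h in PERK −/− MEFs, whose changes were at most 0.07 in size. The share of higher among all called genes moved by over 10 points in 3 comparisons when counts without the TPM floor replaced TPM and size factors were applied. In PERK −/− MEFs at 1 h it was 17.5% in TPM, 25.7% in CPM and 33.8% with TMM factors. At 2 h it was 9.73% in TPM, 18.0% in CPM and 28.1% with DESeq2 factors, and in NIH3T3 cells at 2 h 60.5, 76.7 and 81.5%. The cause was not tested.

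No paired analysis was possible because each condition has 1 library and the labels give no replicate numbers, and no replicate was there to leave out. In the smallest library, WT 2 h, 3 counts equal 1.19 CPM, and the members there rest on 38 to 625 counts. PCR copies were not told apart, so the intervals cover counting error at best.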

Other observations

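Klf15 and Sp4, 2 related genes under the filter on low values, had count changes that the TPM floor hides. Klf15, a factor of muscle and liver metabolism, had 1 count in the WT control and 0, 0, 14 and 25 counts after 1, 2, 5 and 8 h of Tg. At 8 h the ratio per library total was 26.7, with a counting interval of 4.37 to 1097. In PERK −/− MEFs it had 0 counts in the control and 9 at 8 h, at least 2.71-fold higher against a floor of 3 counts in the control library. It was listed at 0 in all NIH3T3 libraries. Sp4, a relative of Sp1 known from neurons, had 11 counts in the PERK −/− control and 72 at 8 h, 5.92-fold (3.12 to 12.4), and was 1.36-fold (0.842 to 2.22) in WT MEFs at 8 h.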
